A study of Mus musculus with 4 samples.

Results

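The interleukin 1 (IL-1) family comprises secreted cytokines and their natural inhibitors, many of which are made by the epidermis itself. The 10 genes described here were taken as a fixed list out of the 32285 genes in each of 4 single-cell matrices. They are the agonists Il1a and Il1b, the IL-36 agonists Il1f6, Il1f8 and Il1f9 (also named Il36a, Il36b and Il36g), Il18, the alarmin Il33, the antagonists Il1rn and Il1f5 (Il36rn), and the decoy receptor Il1r2. IL-1α is stored in keratinocytes and acts when cells are damaged, whereas IL-1β and IL-18 are made as inactive precursors that are usually cut by caspase-1. IL-36 cytokines are made chiefly by stressed or differentiating keratinocytes and act on the receptor encoded by Il1rl2, which the product of Il1f5 blocks. The product of Il1rn occupies the IL-1 receptor without signalling, and the decoy encoded by Il1r2 binds IL-1 without passing a signal on. IL-33 is kept in the nucleus of epithelial cells and signals to T cells, mast cells and innate lymphoid cells through the receptor encoded by Il1rl1.

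The libraries came from adult mouse epidermis in which ΔNp63, the p63 isoform that prevails in basal keratinocytes, could be deleted. Control mice were DNp63fl/fl and carried floxed alleles alone. Ablated mice were DNp63fl/fl;K14-CreT2 and also carried a tamoxifen-dependent Cre driven from the keratin 14 promoter, so deletion is directed at basal keratinocytes and not at T cells, Langerhans cells or stroma. Both groups received tamoxifen at 200 mg/kg by gavage on each of 5 days, so neither group was free of the drug. Back skin was taken 1 day or 1 week after ablation, and 0.25% trypsin, at 4 °C or at 37 °C, released the epidermis. Both sexes were used at ages from 2 to 17 months, and no label ties an age, a sex or a digestion to a library. Each group at each time is a single library, so nothing below could be checked against a replicate or tested. The 1-day pair was made with the 10x Genomics 3′ kit and the 1-week pair with the 5′ kit, so levels are compared only within a time.

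Of the 10 genes, 7 lie on mouse chromosome 2, and 5 of these (Il1f8, Il1f9, Il1f6, Il1f5 and Il1rn) fall within 198 kb at chr2:24153161-24351494 (GRCm38). A promoter window, the 250 bases before the RefSeq gene start on GRCm38.p6, was found for 9 of the 10 genes. Shown are the windows of 4 genes that rose in ablated keratinocytes, 5′ to 3′, with capitals marking matches to AP-1 (TGANTCA), NF-kB (GGG, any 5 bases, then CC) or C/EBP (TTGCNNAA) letters on either strand. Their positions are chr2:129309973-129310222 (minus strand) for Il1a, chr2:24336610-24336859 (plus strand) for Il1rn, chr2:24152922-24153171 (plus strand) for Il1f8 and chr2:24186226-24186475 (plus strand) for Il1f9.
Il1a: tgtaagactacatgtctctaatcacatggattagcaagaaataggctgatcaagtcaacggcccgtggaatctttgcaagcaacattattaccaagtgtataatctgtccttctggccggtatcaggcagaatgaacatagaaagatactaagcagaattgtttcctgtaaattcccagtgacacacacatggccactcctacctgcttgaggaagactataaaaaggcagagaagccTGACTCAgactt
Il1rn: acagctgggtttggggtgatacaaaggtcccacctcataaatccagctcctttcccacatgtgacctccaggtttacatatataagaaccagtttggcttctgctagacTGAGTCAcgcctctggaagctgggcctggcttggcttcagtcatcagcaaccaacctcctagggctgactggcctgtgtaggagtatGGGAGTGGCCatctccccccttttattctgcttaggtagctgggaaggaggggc
Il1f8: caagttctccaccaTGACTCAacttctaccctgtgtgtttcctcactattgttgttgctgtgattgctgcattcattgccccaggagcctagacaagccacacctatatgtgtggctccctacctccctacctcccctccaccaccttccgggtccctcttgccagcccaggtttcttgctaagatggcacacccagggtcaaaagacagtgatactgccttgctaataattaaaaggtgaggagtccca
Il1f9: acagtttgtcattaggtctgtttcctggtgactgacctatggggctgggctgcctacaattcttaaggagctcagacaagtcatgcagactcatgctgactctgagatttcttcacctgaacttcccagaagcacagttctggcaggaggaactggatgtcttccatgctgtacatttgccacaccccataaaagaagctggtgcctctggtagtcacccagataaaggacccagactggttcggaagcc
An AP-1 match stood 12 bases before the start of Il1a, 141 bases before that of Il1rn and 236 bases before that of Il1f8, so 3 of 9 windows held one, against 6.75% of all 32851 windows. The window of Il1rn also held an NF-kB match (GGGAGTGGCC) 54 bases before the start, a motif found in 45.8% of all windows. The window of Il1f5 held a C/EBP match (TTGCCTAA), a motif found in 9.56% of windows. No window held the half-site of the p53 family, which 7.13% of all windows held. No match overlapped another, and the window of Il1f9 held none. A match is a string of letters and was not tested as a binding site.

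Library totals ran from 68191870 to 179736563 UMIs (unique molecular identifiers, each marking 1 captured RNA molecule) over 18413 to 33552 barcodes. After filtering, the 1-day control and ablated libraries held 22298 and 23651 cells with medians of 4131 and 3358 UMIs, and the 1-week libraries held 19879 and 15626 cells with medians of 1381 and 1605 UMIs. Keratinocyte clusters counted 20528 cells (control) and 18426 cells (ablated) at 1 day, against 7462 and 3362 cells at 1 week. Trp63, the gene that encodes p63, was at 404 and 125 CPM (counts scaled to a common total) in keratinocytes at 1 day and at 435 and 164 CPM at 1 week, control before ablated. At 1 week 11414 cells (control) and 11200 (ablated) sat in clusters of shallow, mixed profiles, set aside as low-UMI clusters and summed with the keratinocytes only where stated. At 1 day 7 of 27 clusters passed the same limit but were kept, among them 5 keratinocyte clusters with 4143 control and 4962 ablated cells. Without these, 7 members were called higher and 1 lower at 1 day, as with them. Xist was at 0.0334 and 0.0416 CPM in the 1-day libraries and at 289 and 143 CPM in the 1-week libraries, whereas the labels give even numbers of both sexes. The libraries of a pair shared 299 barcodes at 1 day and 661 at 1 week. Libraries of different times shared 9 to 18, but they differ in kit and so give no baseline for a pair. The source of the shared barcodes was not tested.

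In the keratinocyte sums, most of the family was higher after ablation at both times. A gene was called higher or lower when the log2 ratio of its CPM, ablated over control, was at least 1 in size and the ratio's 95% interval lay on 1 side of 0. All intervals cover counting error only. At 1 day 7 of the 10 genes were called higher and 1 lower, against 6.91% and 2.79% of the 14842 genes with at least 20 UMIs in both sums together. At 1 week 6 were called higher and 2 lower, against 11.0% and 5.59% of 14609 genes. The median log2 ratio of the 10 genes was 2.14 at 1 day, where the median over all genes was -2.94e-05. The corresponding values at 1 week were 2.29 and 0.12. The mix of clusters in the sums differed between the libraries at both times. At 1 day the clusters led by Slc6a14, Sprr2d and mt-Nd6 held 4, 3 and 153 control cells against 2891, 2702 and 2421 ablated ones. A ratio of the sums need not hold within a cluster. That of Il1rn at 1 day ran from -0.0014 in the granular-like cluster led by Wfdc21 to 3.62 in the sebaceous-like one. In the latter Il1rn lay below its level in the 10% of barcodes with the fewest UMIs, 64.3 CPM (control) and 239 CPM (ablated). At 1 week most keratinocyte clusters held cells of mainly 1 library, so the sums set different clusters side by side. Besides the sebaceous-like one, 3 keratinocyte clusters had at least 50 cells of both libraries, led by Ccn2 and Lgr5, by Fst and Sostdc1 and by Cst6 and Krt79. Il18, Il1f8, Il1f9 and Il1rn were each called higher in 1 of these 3, those of Il1f8 and Il1f9 against 1 and 2 control UMIs. The other 6 genes were called higher in none, and Il1a, Il1b and Il1f6 did not reach 20 UMIs in any of the 3. Summed over all cells of each library, so that no cluster name entered, 7 genes were called higher and 0 lower at 1 day (5.17% and 3.97% of all genes), and 6 higher and 1 lower at 1 week (9.70% and 4.94%).

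**Figure D1:**
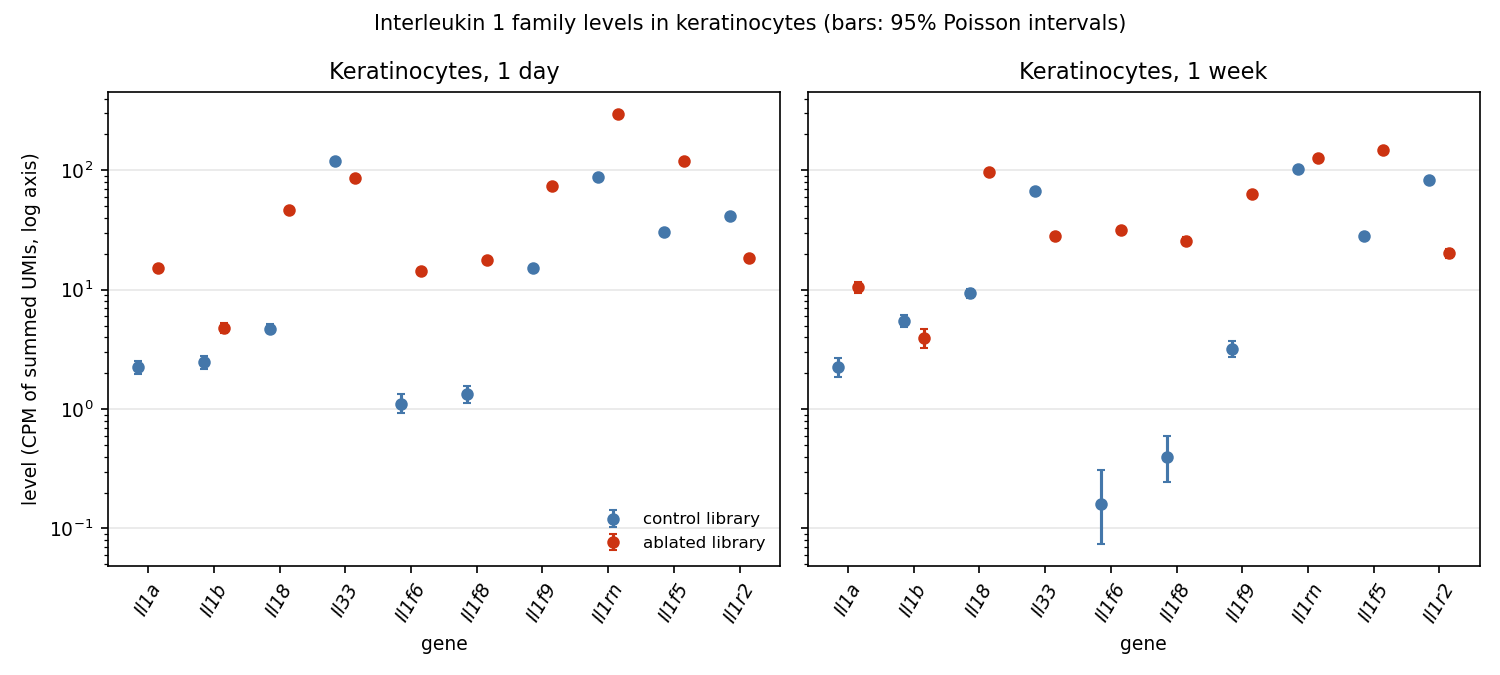
Level of each gene in keratinocytes (vertical log axis, CPM of summed UMIs) in the control and the ablated library at 1 day (left) and 1 week (right), with 95% Poisson bars; genes stand along the horizontal axis. Il1f6, for example, stands at 0.161 CPM in the control and at 31.6 CPM after ablation at 1 week, while Il1r2 stands lower in both ablated libraries.

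Il1a (ENSMUSG00000027399, chr2:129299610-129309972, minus strand), which encodes IL-1α, had a level of 2.23 CPM (1-day control), 15.3 CPM (1-day ablated), 2.24 CPM (1-week control) and 10.5 CPM (1-week ablated). Each ablated library thus lay above the control of its own time, and the log2 rise was 2.78 (2.58 to 2.98) after 1 day and 2.22 (1.92 to 2.53) after 1 week. The share of keratinocytes with at least 1 Il1a UMI changed with ablation from 1.06% to 5.42% after 1 day and from 1.25% to 3.81% after 1 week. In the 1-day ablated library 998 keratinocytes held 1209 Il1a UMIs, with at most 6 in any cell. Within the 1-day clusters, the contrast was widest in keratinocytes led by Cstdc5 and Krt6b (118 control and 427 ablated cells), at 1.57 and 42.6 CPM, a log2 ratio of 4.76 (2.88 to 7.82, 2 UMIs against 122).

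Il1b (ENSMUSG00000027398, chr2:129364570-129371139, minus strand), which encodes IL-1β, stayed low in keratinocytes, at 2.47 and 4.77 CPM in the 1-day control and ablated libraries and at 5.51 and 3.93 CPM in the 1-week ones. Neither ratio was called, at 0.95 (0.72 to 1.18) in the 1-day pair and -0.49 (-0.81 to -0.17) in the 1-week pair. The summed Langerhans marker list (9 genes, none at 0) in the same keratinocytes was at 940 and 1960 CPM at 1 day, control before ablated. At 1 week the sum was at 888 and 1642 CPM. Cd207, a marker of that list, rose with the sum at 1 day, from 14.02 to 32.5 CPM. At 1 week Cd207 went the other way, from 13.4 to 8.71 CPM. The part of these markers in the Il1b values was not tested. Of all Il1b UMIs, Langerhans-like cells held 77.9% (control) and 74.2% (ablated) in the 1-day pair, with 41.8% and 38.1% in the 1-week pair. At 1 week, the control keratinocytes led by Skint5 (1214 cells) had 26.5 CPM and the ablated ones led by Lce3d (371 cells) had 62.0 CPM, each in a cluster nearly without cells of the other library.

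Among the IL-36 agonists, Il1f6 and Il1f8 had the widest ratios of the 10 genes in the keratinocyte sums of both times, while Il1f9 stood below Il18 and Il1a at 1 day. Il1f6 (ENSMUSG00000026984, chr2:24215418-24225702, plus strand) was at 1.11 and 14.4 CPM at 1 day and at 0.161 and 31.6 CPM at 1 week, control before ablated. It rose by 3.69 (3.42 to 3.98) after 1 day and 7.61 (6.68 to 8.74) after 1 week. The 1-week control level rests on 9 UMIs in 6 of 7462 keratinocytes, against 939 UMIs in 195 of 3362 ablated ones. Il1f8 (ENSMUSG00000026985, chr2:24153161-24160519, plus strand) was at 1.33 and 17.6 CPM at 1 day and at 0.395 and 25.5 CPM at 1 week. Its ratios were 3.72 (3.47 to 3.98) and 6.01 (5.41 to 6.70), and the 1-week control again held few UMIs, 22 in 16 cells. The share of keratinocytes with an Il1f8 UMI was 0.555% and 5.26% at 1 day and 0.214% and 7.70% at 1 week. Il1f9 (ENSMUSG00000044103, chr2:24186476-24193568, plus strand) was the most abundant of the 3, at 15.2 and 74.4 CPM at 1 day and at 3.21 and 63.7 CPM at 1 week. It rose by 2.29 (2.21 to 2.37) and 4.31 (4.09 to 4.54), and its share of positive keratinocytes went from 5.10% to 18.2% and from 1.63% to 14.4%. All 3 agonists therefore lay higher in each ablated library than in the control of the same time.

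Il18 (ENSMUSG00000039217, chr9:50554827-50581840, plus strand), which encodes the caspase-1 substrate IL-18, was at 4.73 CPM (1-day control), 46.9 CPM (1-day ablated), 9.38 CPM (1-week control) and 97.8 CPM (1-week ablated). The gene rose 9.91-fold at 1 day (log2 3.31, 3.18 to 3.45) and 10.4-fold at 1 week (log2 3.38, 3.25 to 3.52). It was concentrated in few cells. In the 1-day ablated library 1553 of 18426 keratinocytes held all 3703 Il18 UMIs, and the highest cell held 49. In the 1-week ablated library 585 of 3362 held 2908 UMIs, and the highest cell held 90.

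Il33 (ENSMUSG00000024810, chr19:29925114-29960718, plus strand) was lower in the keratinocyte sums of both ablated libraries, though not in every keratinocyte class. It was at 120 and 86.8 CPM at 1 day, a log2 ratio of -0.46 (-0.51 to -0.42) that was not called, and at 67.3 and 28.2 CPM at 1 week, a fall of -1.26 (-1.37 to -1.15) that was called. The share of Il33-positive keratinocytes went from 25.3% to 16.7% at 1 day and from 24.8% to 8.0% at 1 week. These sums leave out a cluster led by Krt8 and Krt18 with 4010 ablated and 1 control cell at 1 day, whose ablated cells had 277 CPM of Il33. With the Krt8-led cells counted as keratinocytes, the ratio was -0.03 at 1 day, and -0.78 and no longer called at 1 week. The 1-week call was also lost in all cells together (-0.66), with the low-UMI clusters counted (-0.88), with no doublets removed (-0.70) and in cells with Xist alone (-0.90).

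The antagonists rose as well at 1 day. Il1rn (ENSMUSG00000026981, chr2:24336853-24351494, plus strand), the IL-1 receptor antagonist, was the most abundant of the 10 genes in ablated keratinocytes at 1 day, at 296 CPM against 88.7 CPM for control cells. It rose by 1.74 (1.70 to 1.77), and 47.4% of ablated and 25.5% of control keratinocytes held a UMI of it. Its 1-week levels were 102 CPM (control) and 126 CPM (ablated), a ratio of 0.31 (0.25 to 0.37) that was not called, with shares of 32.4% and 29.5%. Il1f5 (ENSMUSG00000026983, chr2:24276954-24283426, plus strand), the IL-36 receptor antagonist, was at 30.3 and 121 CPM at 1 day and at 28.5 and 147 CPM at 1 week. Over the sums it rose by 1.99 (1.94 to 2.05) and 2.37 (2.29 to 2.45). In the 3 large 1-week clusters with cells of both libraries it was not called, at 0.83, 0.40 and -0.05. In the 1-week ablated library 718 keratinocytes held 4371 Il1f5 UMIs, or 6.09 per positive cell against 2.15 in the control, and 1 cell held 122.

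The decoy receptor gene Il1r2 (ENSMUSG00000026073, chr1:40074079-40125231, plus strand) was lower in both ablated libraries. It was at 41.7 and 18.4 CPM at 1 day and at 82.4 and 20.1 CPM at 1 week, control before ablated. The ratios were -1.18 (-1.27 to -1.10) and -2.03 (-2.16 to -1.91), and the share of positive keratinocytes went from 14.3% to 5.79% and from 29.4% to 6.28%. At 1 week 3165 of the 4591 control UMIs of Il1r2 came from the basal-like cluster, which held 2038 control and 17 ablated cells. The same cluster held 2063 of 3749 control UMIs of Il33. In the 3 large clusters with cells of both libraries Il1r2 was low in both libraries (3 to 24 UMIs in each sum) and was not called, at -1.24, -0.06 and -0.24. The 1-day call was lost over all cells together, where the ratio was -0.47 and Langerhans-like cells held 37.3% of control and 63.2% of ablated Il1r2 UMIs.

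Shares of positive cells depend on depth and on free RNA, so they were also taken after thinning every cell to 1000 UMIs and set beside T cell-like cells, which are not known as a source of Il1rn, Il1f5 or Il1f9. Median depth at 1 day was 4316 and 3385.5 UMIs in keratinocytes and 1241 and 2869 UMIs in T cell-like cells, control before ablated. Thinned shares for Il1rn were 6.62% and 21.0% in keratinocytes against 2.87% and 16% in T cell-like cells. For Il1f5 they were 1.86% and 9.51% against 0.538% and 3.05%. For Il1f9 they were 1.06% and 5.94% against 0.538% and 5.08%. For Il33 they were 8.71% and 6.50% against 2.51% and 5.84%. The thinned ablated shares of Il33 and Il1f9 in keratinocytes thus lay close to those in T cell-like cells and are not read as a share of expressing cells. That of Il1rn lay above the T cell-like one, which also rose, from 2.87% to 16%. The 1-day shares of Il1rn are therefore not read in this way either. At 1 week, where T cell-like cells had 0 thinned cells positive for Il1rn, Il1f5 or Il33 in either library, the thinned keratinocyte shares were 7.27% and 8.33% for Il1rn, 1.88% and 7.58% for Il1f5 and 5.88% and 2.38% for Il33. Median depths at 1 week were 6066.5 and 5338 UMIs in keratinocytes and 1975 and 1875 UMIs in T cell-like cells.

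Each compartment of the epidermis was also taken on its own. In basal-like keratinocytes at 1 day (4705 control and 490 ablated cells), Il1a rose from 3.56 to 12.8 CPM (log2 1.85). In the same cells Il33 fell from 219 to 83.6 CPM (-1.39), and Il1r2 fell from 147 to 60.4 CPM (-1.28). These are 1 gene higher and 2 lower of 8 with the minimum of UMIs, against 2.86% and 1.40% of all genes. Il1rn was at 75.0 and 109 CPM there (0.53) and Il1f9 at 8.11 and 9.76 CPM (0.27), neither called. Nor was Il18 called in basal-like cells, at 2.72 and 5.49 CPM (1.01, -0.19 to 2.04, 58 UMIs against 9). Il1f6 had 0 UMIs in the 4705 control cells, which allows up to 0.141 CPM. In suprabasal-like cells (4990 and 993), 7 genes were called higher and 1 lower of 10, against 4.52% and 1.93% of all genes. Il18 was at 3.69 and 24.0 CPM (2.70), Il1a at 1.64 and 8.21 CPM (2.33) and Il1rn at 123 and 254 CPM (1.05). In this class Il33 was at 156 and 55.5 CPM (-1.49) and Il1r2 at 8.96 and 19.9 CPM (1.15). The class pools a cluster led by Mt4 and Krt1 (3880 control and 426 ablated cells) with one led by Ivl (1110 and 567), so its mix differed between the libraries. In each of these clusters alone, Il18 (2.34 and 2.11) and Il1a (2.23 and 2.62) were called higher. In neither of them was a call made for Il1rn (0.72 and 0.80), Il1f5 (0.09 and 0.55), Il1f9 (0.31 and 0.45) or Il33 (-0.83 and -0.37). Il1r2 rose in the first, from 7.06 to 44.5 CPM (2.66), and was not called in the second (-0.53). In cycling cells (850 and 992), 3 of 8 genes were called higher and 2 lower, against 4.63% and 2.22% of all genes, and the lower ones were Il33 at 109 and 53.7 CPM (-1.03) and Il1r2 at 47.2 and 6.58 CPM (-2.84). These classes hold only some of the ablated keratinocytes, since 11154 of 18426 had no class. In the 10% of 1-day barcodes with the fewest UMIs, Il1a was at 1.77 and 13.4 CPM and Il18 at 10.0 and 34.8 CPM. The ablated levels of both genes in basal-like, suprabasal-like and cycling cells lay below these. The part of free RNA in these rises was not tested.

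Granular-like cells, the uppermost living layer marked by Flg2, Hrnr and Lor, numbered 183 (control) and 1002 (ablated) at 1 day. They called 5 genes higher and 0 lower of 10, against 7.25% and 3.02% of all genes. Il18 rose in them from 88.7 to 451 CPM (2.35), with 25.7% and 47.7% of cells positive. Il1f8 rose from 18.9 to 91.3 CPM (2.27), and a rise from 49.1 to 125 CPM was found for Il1f6 (1.35). The other calls were Il33 at 16.6 and 36.0 CPM (1.12) and Il1a at 16.6 and 33.8 CPM (1.03). These Il33 levels lay below those in the 10% of barcodes with the fewest UMIs, 56.1 CPM (control) and 91.3 CPM (ablated). The genes that were highest in control granular-like cells, Il1rn, Il1f5 and Il1f9, stood close to their control level. Il1rn was at 480 and 426 CPM (-0.17), Il1f5 at 502 and 465 CPM (-0.11) and Il1f9 at 244 and 214 CPM (-0.19). Median depth in this class was 8961 UMIs in the control and 4159.5 UMIs in the ablated library, and its control cells fell almost wholly in a single cluster. For that cluster alone (175 control and 726 ablated cells) the share of all genes called was not taken. In it Il18, Il1f6 and Il1f8 were called higher, and Il1r2 was called lower, at 99.6 and 40.2 CPM (-1.31). Il33 (0.98) and Il1a (0.39) were not called there. In the same cluster, Il1rn was at 498 and 498 CPM, Il1f5 at 515 and 538 CPM, Il18 at 57.2 and 264 CPM (2.21) and Il1f8 at 17.2 and 92.9 CPM (2.43). A further granular-like cluster led by Lce1 genes held 8 control and 276 ablated cells and carried 1151 CPM of Il18 in the latter. After 1 week only 43 control granular-like cells were found, too few for a ratio, beside 164 ablated ones. Il1f6 was at 9.99 and 315 CPM in these, Il18 at 305 and 770 CPM and Il1f5 at 598 and 1109 CPM.

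Hair follicle-like cells were numerous in all libraries. At 1 day (5273 control and 3576 ablated cells) 5 of 10 genes were called higher and 0 lower, against 2.43% and 0.840% of all genes, and all 5 were among the 7 called higher in the whole keratinocyte sum. Il1f6 rose from 0.511 to 2.81 CPM (2.46), Il1f8 from 3.24 to 13.9 CPM (2.10), Il18 from 4.37 to 13.3 CPM (1.60), Il1a from 1.87 to 5.00 CPM (1.42) and Il1f9 from 7.38 to 17.9 CPM (1.28). All of these ablated levels but that of Il1f8 lay below those in the 10% of ablated barcodes with the fewest UMIs. In those barcodes Il1f6 was at 7.29, Il1f8 at 11.5, Il18 at 34.8, Il1a at 13.4 and Il1f9 at 50.6 CPM. In hair follicle-like cells Il33 was at 14.4 and 16.3 CPM (0.18) and Il1r2 at 8.0 and 8.51 CPM (0.09), so neither lower value of the whole keratinocyte sum was seen. In the lowest-UMI barcodes Il33 was at 56.1 and 91.3 CPM and Il1r2 at 81.2 and 134 CPM. Both genes lay below these levels, so nothing is read from the lack of a fall. The 4 clusters of this class differed. Il1rn and Il1f5, not called in the class (0.94 and 0.74), were called higher in the cluster led by Krt24 and Cd34 (1.66 and 1.61), in that led by Cst6 and Defb6 (1.15 and 2.40) and in that led by Ramp1 and Sncg (1.45 and 1.64). Il18 was not called in the first of these (0.95), and Il1r2 was called higher in the cluster led by 2310046K23Rik (1.23). The first and the third had over 50% of barcodes like free RNA, 66.4% and 73.9%, the limit that set clusters aside at 1 week. In each cluster with these Il1rn and Il1f5 calls, ablated Il1rn (35.2 to 99.9 CPM) and Il1f5 (8.30 to 13.6 CPM) were low. They lay below their levels in the lowest-UMI ablated barcodes, 239 and 90.3 CPM. At 1 week (1420 and 1370 cells) 3 of 7 genes with the minimum were called higher and 0 lower, against 3.83% and 4.69% of all genes. Il18 rose from 5.60 to 12.6 CPM (1.18), Il1f9 from 0.933 to 3.03 CPM (1.70) and Il1f8 from 0.133 to 2.81 CPM (4.4, 1.79 to 9.76, with 1 control UMI). These ablated levels lay below those in the lowest-UMI ablated barcodes of 1 week, 60.1, 62.6 and 17.2 CPM in the same order. Of the 2 clusters in this 1-week class, Il18 was called in neither (0.02 and 0.85), nor was Il1f9, at 1.06 in one and 0 UMIs against 5 in the other. Sebaceous-like cells (90 and 219 at 1 day) called 4 of 4 genes higher, against 15.8% of all genes higher and 2.95% lower. Among them were Il1rn at 9.92 and 122 CPM (3.62) and Il33 at 13.2 and 65.8 CPM (2.32). Both genes lay below their levels in the 10% of barcodes with the fewest UMIs, 64.3 and 239 CPM for Il1rn and 56.1 and 91.3 CPM for Il33. The others were Il1f5 (0 control UMIs against 79) and Il1f9 (3 against 33), which reached the minimum through the ablated library. Their ablated levels, 74.3 and 31.0 CPM, also lay below those in the lowest-UMI barcodes, 90.3 and 50.6 CPM. The sebaceous-like control cells of 1 week lay in a single cluster. In it Il33 stood at 175 CPM (control) and 18.4 CPM (ablated), a ratio of -3.24, and Il1rn at 0.868 and 9.22 CPM (3.41, 0.63 to 8.84, 1 UMI against 11). The whole 1-week class had 125 control and 359 ablated cells, most of the latter in a cluster with 0 control cells. Over this class 7 of 8 genes were called higher and 1 lower, against 8.65% and 4.93% of all genes. In its control cells Il18, Il1f5, Il1f6, Il1f8 and Il1f9 had 0 UMIs, Il1rn had 1 and Il1r2 had 3. These genes reached the minimum only through the ablated library, so nothing is read from the 7 calls.

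**Figure D2:**
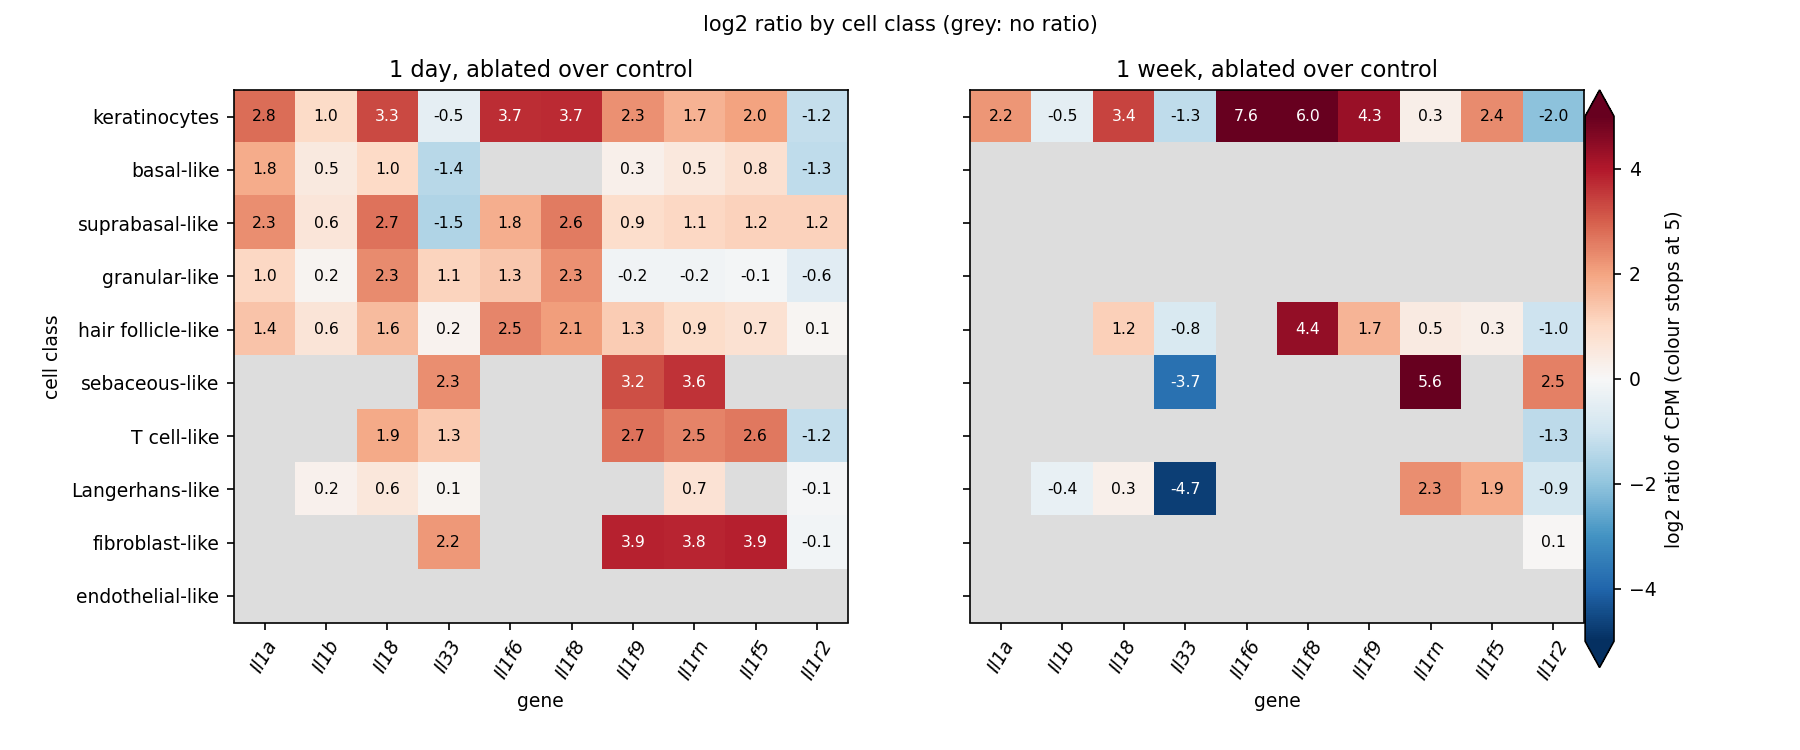
Log2 ratio of CPM, ablated over control, by cell class (rows) and gene (columns) at 1 day (left) and 1 week (right); red is higher in the ablated library, blue lower and grey no ratio. Il18 is positive in each keratinocyte row with a ratio. Among the single classes at 1 day it runs from 1.01 in basal-like cells (not called, 9 ablated UMIs) to 2.70 in suprabasal-like cells. Il33 at 1 day is -1.39 in basal-like, -1.49 in suprabasal-like, 0.18 in hair follicle-like, 1.12 in granular-like and 2.32 in sebaceous-like cells.

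The parts of each gene's UMIs held by the classes differed between the libraries, and so did the cell numbers of the classes. Basal-like cells at 1 day, for example, numbered 4705 (control) and 490 (ablated), with Il33 at 219 and 83.6 CPM. The parts below therefore mix cell number with level and are not read as a move of expression between classes. The granular-like part of all Il18 UMIs was 24.0% (control) and 55.7% (ablated) in the 1-day pair and 26.4% and 42.1% in the 1-week pair. Il1f6 was already a granular gene in the control, with 68.6% of its UMIs there and 54.5% after ablation at 1 day. For Il33, basal-like and suprabasal-like cells held 36.0% and 46.9% of the 1-day control UMIs. In the 1-day ablated library the same classes held 1.2% and 2.4%, the Krt8-led cells 37.0% and keratinocytes with no class 50.4%. The Krt8-led cells also held 26.8% of Il1a and 11.5% of Il1rn UMIs in that library. In the low-UMI clusters of 1 week, Il1f6 had 0 UMIs in the control, which allows up to 0.242 CPM, and 37.3 CPM in the ablated library, while Il18 was at 16.9 and 81.2 CPM and Il1b at 35.9 and 39.8 CPM. At 1 week the Krt8-led cells numbered 508 ablated and 0 control cells, with 314 CPM of Il1rn, 115 CPM of Il1f5, 81.6 CPM of Il33 and 1.82 CPM of Il1r2. Some clusters without a class were nearly all ablated at 1 day. Cells led by Sprr2d (3 control, 2702 ablated) had 507 CPM of Il1rn, 198 CPM of Il1f5 and 154 CPM of Il1f9, and cells led by Slc6a14 (4 and 2891) had 451 CPM of Il1rn, 91.0 CPM of Il1f5 and 218 CPM of Il33.

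**Figure D3:**
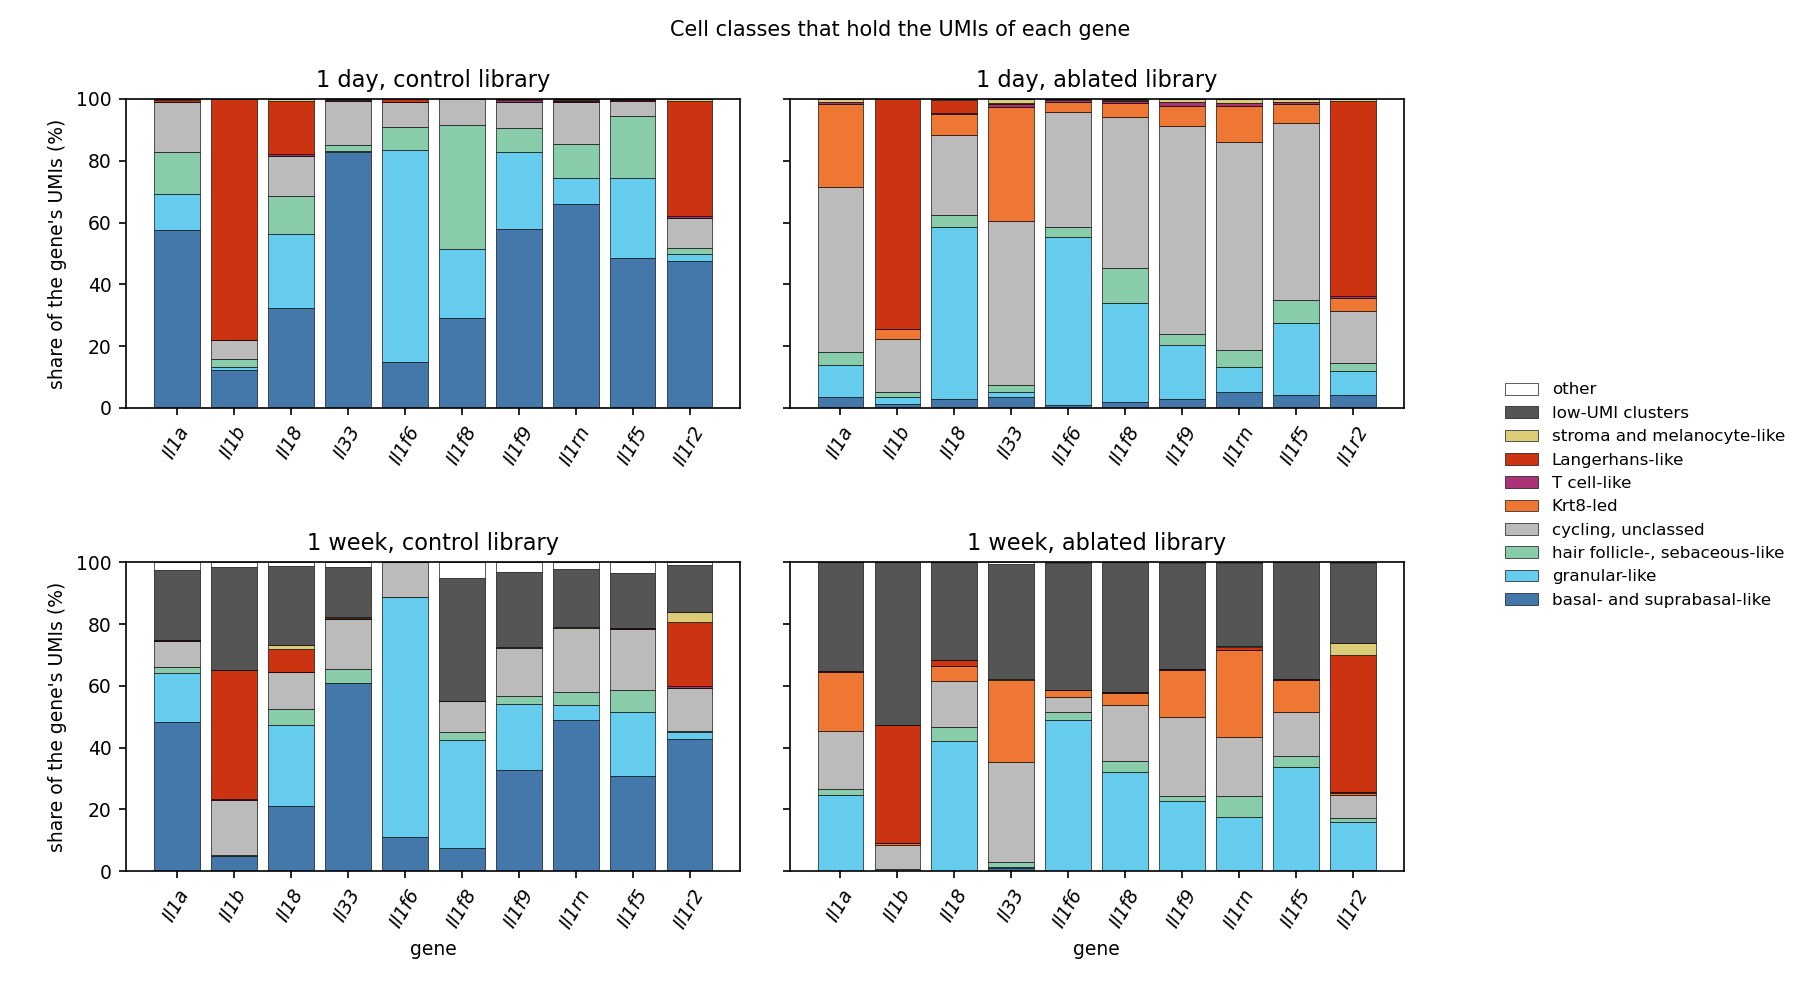
Share of each gene's UMIs (vertical axis, %) held by each group of cell classes, 1 stacked bar per gene and 1 panel per library. Langerhans-like cells hold 77.9% of Il1b UMIs in the 1-day control, and the granular-like part of Il18 is 24.0% there and 55.7% in the 1-day ablated library. The shares depend on the cell number of each class as well as on its level.

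Parts of each library were compared on their own. At 1 day 3 of the 4 antibody hashtags in the matrices held more than 1% of the hashtag counts, and the labels do not say what they mark. In the cells of hashtag 1, hashtag 2 and hashtag 3 the ratio of Il18 was 2.83, 3.45 and 3.01, that of Il1a 3.0, 2.77 and 2.13, and that of Il1f9 2.52, 2.11 and 2.13. Il1f6 was at 5.91, 3.38 and 3.76 and Il1f8 at 3.59, 4.35 and 1.81, so in hashtag 3 Il1f8 stood below Il18, Il1a and Il1f9. Il1r2 was at -0.98, -2.13 and -1.47. The cells without a leading hashtag, 9197 of the 18426 ablated keratinocytes, had ratios of -0.47 for Il1r2, 0.00 for Il33 and 3.67 for Il18. Il33 went from 91.9 to 74.0 CPM (-0.31), from 113 to 125 CPM (0.15) and from 178 to 59.4 CPM (-1.58) in the same order, so its size and direction depended on the hashtag. At 1 week, keratinocytes with Xist UMIs alone (2582 control, 702 ablated) and with Y-linked UMIs alone (2494 and 1265) were set apart. Il1rn was at 100.5 and 225 CPM in the first (1.16) and at 109 and 83.5 CPM in the second (-0.39), which are opposite directions. Il1r2 was lower in both, at 97.7 and 36.0 CPM (-1.44) and at 70.0 and 4.12 CPM (-4.09). Il18 was higher in both (3.23 and 3.90), as were Il1f6 (8.16 and 7.64) and Il1f5 (3.10 and 1.73). The Il1f6 ratios rest on 5 and 1 control UMIs, with intervals of 6.93 to 9.79 and of 5.13 to 12.95.

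**Figure D4:**
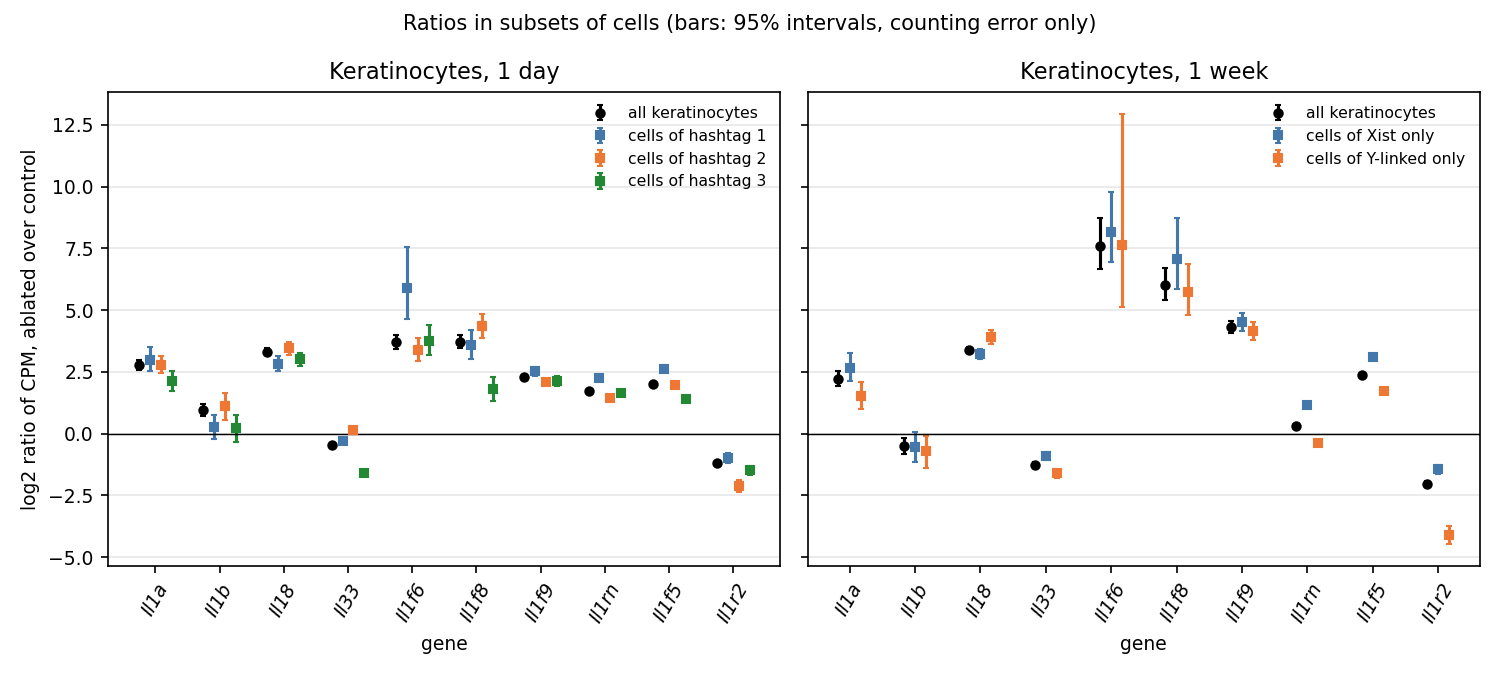
Log2 ratio of CPM in keratinocytes, ablated over control (vertical axis), for each gene in all keratinocytes and in the cells of each hashtag at 1 day (left) or with Xist or Y-linked UMIs alone at 1 week (right), with 95% intervals for counting error. The points of Il33 at 1 day run from -1.58 to 0.15 and those of Il1rn at 1 week from -0.39 to 1.16, while those of Il18 stay between 2.83 and 3.90.

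Of 41 further genes of the pathway, 39 had enough UMIs in keratinocytes at 1 day, of which 4 were called higher and 2 lower, beside 6.91% and 2.79% of all genes, with a median ratio of 0.24. At 1 week 4 of 35 were called higher and 2 lower, beside 11.0% and 5.59% of all genes, with a median of 0.02. Il1f10, a family member encoding IL-38, rose at both times, with 0.352 and 1.73 CPM after 1 day (2.30) and with 0.825 and 4.91 CPM after 1 week (2.57). Sigirr, an inhibitory receptor of the family, rose as well, with 0.575 and 1.63 CPM (1.51) and later 1.06 and 2.79 CPM (1.40). The IL-33 receptor gene Il1rl1 was called higher at 1 day (1.48) but at 0.241 and 0.671 CPM, and the inflammasome sensor gene Nlrp3 likewise (1.55) at 0.269 and 0.785 CPM. The sensor genes Nlrp1a and Nlrp1b were lower at 1 day, Nlrp1a at 0.936 and 0.0253 CPM (-5.21, -8.27 to -3.32, 101 UMIs against 2) and Nlrp1b at 0.501 and 0.114 CPM (-2.14). At 1 week the DNA sensor gene Aim2 rose from 0.933 to 2.42 CPM (1.38), and Capn2, a subunit of the calpain that can cut the IL-1α precursor, rose from 28.6 to 106 CPM (1.89). As for the members, these 1-week sums set different clusters side by side. In 1-week hair follicle-like cells 1 of 31 pathway genes with the minimum was called higher and 0 lower, against 3.83% and 4.69% of all genes. Capn2 was not called there, and Aim2 did not reach the minimum.

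Among the receptors in keratinocytes, the IL-1 receptor gene Il1r1 was at 18.9 and 14.2 CPM at 1 day (-0.42, not called) and fell from 24.5 to 9.92 CPM at 1 week (-1.31). The IL-36 receptor gene Il1rl2 was at 43.2 and 40.8 CPM (-0.08) and at 70.5 and 36.2 CPM (-0.96), neither called. Il18r1 was at 9.22 and 9.26 CPM (0.01) and at 10.7 and 9.48 CPM (-0.18). Tollip, an adaptor that dampens receptor signalling, was at 122 and 145 CPM at 1 day (0.24) and fell from 145 to 72.6 CPM at 1 week (-1.0). In 1-week hair follicle-like cells Il1r1 was not called, and Tollip was not called lower. Of the 16 maturation genes, Casp1 was at 13.6 and 15 CPM (0.14) and at 20.2 and 19.3 CPM (-0.07), and Ctsg and Elane, protease genes of neutrophils, had 0 UMIs in all 4 keratinocyte sums. The summed neutrophil list was at 4.96 and 42.2 CPM at 1 day and at 2.62 and 153 CPM at 1 week. Of its 5 markers, S100a8, S100a9 and Cxcr2 were detected in all 4 keratinocyte sums. Retnlg was at 0 in all, and Csf3r was at 0 except in the 1-day ablated library. S100a8 and S100a9 were also among the leading genes of keratinocyte clusters, led by Cstdc5 and Krt6b at 1 day and by Klk13 at 1 week. The part of neutrophils in the results was not tested. None of the 15 signalling genes was called at either time. At 1 day 14 of them had ratios above 0, among them Nfkbia, the inhibitor induced by NF-kB, at 883 and 1236 CPM (0.49), Myd88 (0.40) and Irak3 (0.76). At 1 week 9 of the 15 had ratios above 0, and Irak3 stood at -0.42.

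**Figure D5:**
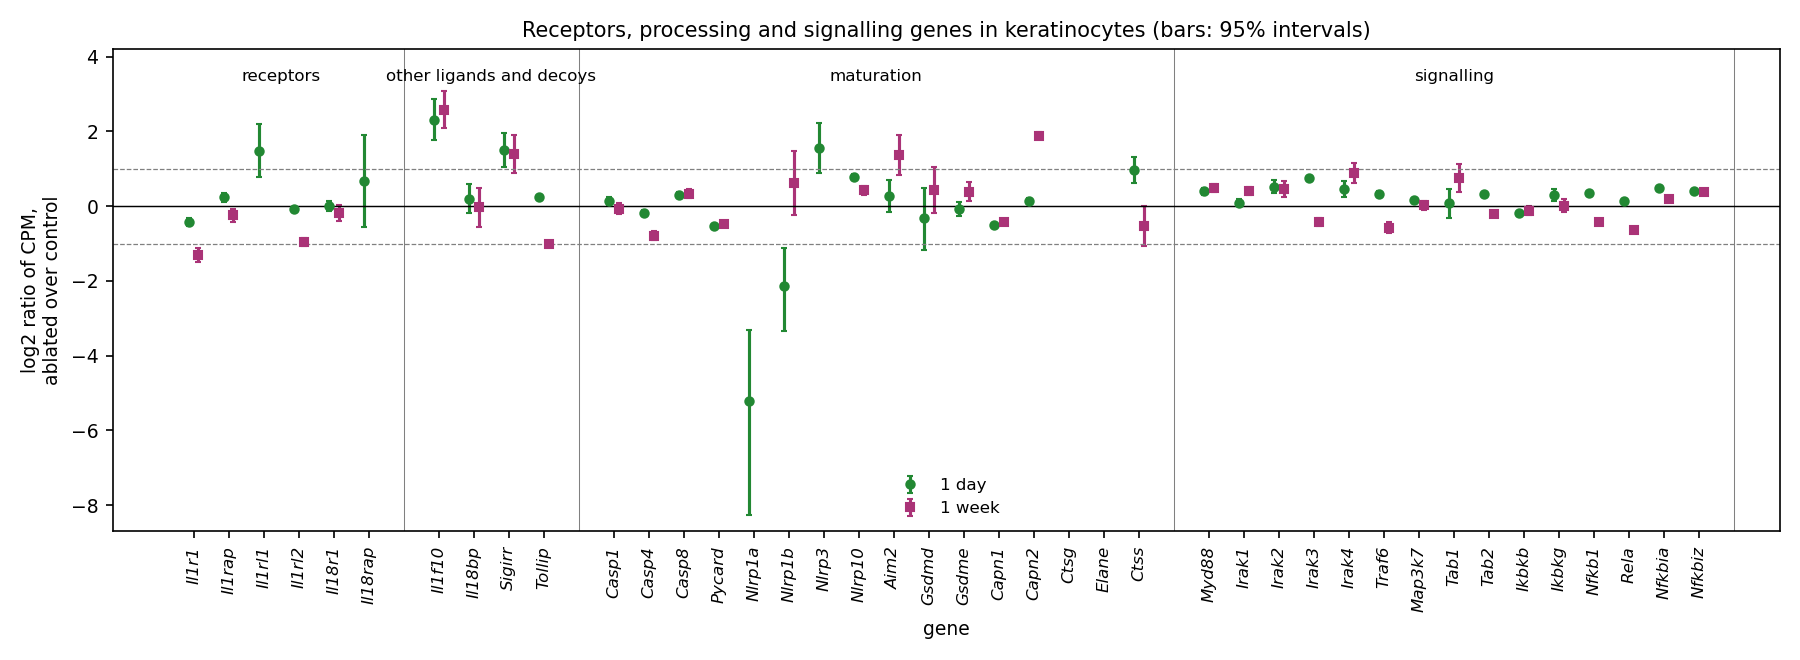
Log2 ratio of CPM in keratinocytes, ablated over control (vertical axis), for the genes of the pathway list, grouped by role along the horizontal axis, at 1 day (circles) and 1 week (squares), with 95% intervals; dashed lines mark a log2 ratio of 1 in either direction. Most points lie between the dashed lines, and Nlrp1a at 1 day (-5.21) lies farthest from 0.

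Langerhans-like cells, the antigen-presenting cells of the epidermis marked by Cd207 and MHC class II genes, held more Il1b UMIs than any other class in 3 of the 4 libraries and had the highest Il1r2 level. In the 1-week ablated library the low-UMI clusters held 52.7% of Il1b UMIs, against 38.1% in Langerhans-like cells. At 1 day (386 control and 466 ablated cells) 0 of 5 genes with the minimum were called, against 3.06% of all genes higher and 1.43% lower. Il1b was at 955 and 1123 CPM (0.23), with 29.8% and 33.5% of cells positive, against 0.399% and 0.508% of T cell-like cells. Il1r2 was at 2752 and 2612 CPM (-0.08), with 92.5% and 89.5% positive, and Il18 at 109 and 162 CPM (0.58). Median depth was 2418 and 2175.5 UMIs. At 1 week (119 and 80 cells, with medians of 3983 and 7247.5 UMIs) Il1b was at 791 and 614 CPM (-0.37), and Il1r2 at 2280 and 1249 CPM (-0.87, not called). Here 2 of 6 genes were called higher and 1 lower, against 8.79% and 3.94% of all genes. Il1rn was at 20 and 98.8 CPM (2.31), Il1f5 at 5.71 and 20.9 CPM (1.87), and Il33 at 30 and 1.16 CPM (-4.69, -10.06 to -2.05, 21 UMIs against 1). Il1rn (14 control UMIs against 85) and Il1f5 (4 against 18) reached the minimum only with the ablated library. The summed keratinocyte list (15 markers, none at 0) was at 21593 and 19185 CPM in these cells and the Langerhans list at 80813 and 57290 CPM. The fibroblast list was at 20 CPM (control, 5 of 8 markers detected) and 389 CPM (ablated, 8 of 8), and that of macrophages or other myeloid cells at 443 and 686 CPM. Their part in these values was not tested.

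In T cell-like and fibroblast-like cells the levels of keratinocyte markers differed between the 1-day libraries. In T cell-like cells (751 control and 394 ablated) the summed keratinocyte list was at 13374 and 29330 CPM and the list of 12 T-cell markers at 10480 and 2782 CPM. Beside this, 5 of 6 members were called higher and 1 lower, against 9.58% and 12.1% of all genes. Il1rn was at 35.3 and 194 CPM (2.46), Il33 at 33.8 and 83.0 CPM (1.30), Il1f5 at 7.51 and 46.4 CPM (2.63) and Il1f9 at 7.51 and 49.1 CPM (2.71). Il1r2 was at 36.8 and 15.9 CPM (-1.21). In the control cells of the T cell-like clusters led by Ctla2a and by Srgn, Il18 had 3 and 1 UMIs, Il1f5 6 and 4 and Il1f9 10 and 0. These genes reached the minimum only through the ablated library, so nothing is read from their calls. In the 10% of barcodes with the fewest UMIs, Il1rn was at 64.3 and 239 CPM, Il33 at 56.1 and 91.3 CPM and Il1f5 at 22.1 and 90.3 CPM. The receptor genes of IL-18, which T cells use, were lower too, Il18r1 at 51.8 and 20.1 CPM (-1.37) and Il18rap at 33.1 and 10.4 CPM (-1.67). The part of the keratinocyte markers in these values was not tested. At 1 week (224 and 113 cells), where the keratinocyte list was at 5855 and 4030 CPM, Il1rn was at 12.1 and 11.9 CPM, Il33 had 0 UMIs in both, and Il18r1 was at 68.5 and 67.4 CPM (-0.02). Only Il1r2 reached the minimum, at 117 and 47.5 CPM (-1.30, lower), against 3.71% of all genes lower and 3.63% higher, and 57 of its 58 control UMIs came from the cluster led by Ccl5 and Icos.

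Fibroblast-like cells at 1 day (470 control and 282 ablated) had the keratinocyte list at 11448 and 30447 CPM and the list of 8 fibroblast markers at 3510 and 2557 CPM. Beside this, 4 of 5 members were called higher and 0 lower, against 9.72% and 13.2% of all genes. Il1rn was at 18.5 and 260 CPM (3.82), Il1f5 at 5.77 and 84.8 CPM (3.88), Il1f9 at 3.46 and 50.5 CPM (3.87, 2.24 to 6.19, 3 UMIs against 53) and Il33 at 26.6 and 118 CPM (2.15). Il1rn, Il1f5 and Il1f9 had 16, 5 and 3 control UMIs and reached the minimum only through the ablated library, so nothing is read from their calls. The part of the keratinocyte markers in these values was not tested. The 1-week fibroblast-like cells (166 and 67) were led by Dcn, Col1a1 and Col1a2 and those of 1 day by Tnfaip6 and Serpine2, so they may be different cells under 1 name. A 1-week cluster that met no name (164 and 117 cells) was led by Crabp1, with Serpine2 and Tnfaip6 among its leading genes. In it Il1rn had 3 UMIs (control) and 1 UMI (ablated), Il33 was at 37.2 and 29.3 CPM (-0.34, not called), and Il1f5 and Il1f9 had 0 UMIs. In the 1-week fibroblast-like cells, with the keratinocyte list at 7277 and 1929 CPM and the fibroblast list at 41071 and 31021 CPM, Il1f5 and Il1f9 had 0 UMIs in both libraries, which allows up to 3.99 CPM (control) and 11.3 CPM (ablated). Il1r2 was at 313 and 327 CPM (0.06) there, with 58.4% and 53.7% of cells positive, and was not called, beside 3.96% of all genes called lower and 3.85% higher. Il1r1, the signalling receptor that Il1r2 mimics, was at 282 and 244 CPM in the same fibroblast-like cells (-0.21). In the 1-week endothelial-like cells (116 and 85) no member reached the minimum, beside 5.31% of all genes called higher and 5.37% lower. The class pools a cluster led by Selp and Plvap (55 and 54 cells) with one led by Ccl21a (61 and 31), and its keratinocyte list was at 17112 and 5608 CPM. Il1r1 was at 52.7 and 171 CPM (1.70) in it, and the part of the mix and of these markers was not tested.

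The genes most like each member were found from the Pearson correlation of log2 levels over 48 cluster-by-library sums at 1 day and 35 at 1 week, which share libraries and depth and are given as a description only. For Il1f8 it was Flg, encoding filaggrin of the granular layer (r = 0.942 and 0.935), and for Il1f5 it was Cnfn (0.947 and 0.954). For Il1f6 it was Lipk (0.939 and 0.942), and for both Il1f9 and Il1a it was Klk9, with r of 0.927 and 0.924 for Il1f9 and of 0.885 and 0.899 for Il1a. For Il1rn it was Cers3, a ceramide synthase of the barrier (0.907 and 0.915), and for Il18 it was Psors1c2 (0.784 and 0.779). For Il1b it was Alox5ap, of leukotriene synthesis in myeloid cells (0.966 and 0.966), and for Il1r2 it was Ccrl2 (0.805 and 0.840). The nearest gene to Il33 was Wnt3, at the lowest values of the 10 (0.762 and 0.683). Among the members themselves, Il1f5 and Il1f9 had r of 0.934 and 0.877, and Il1b and Il1r2 had 0.824 and 0.685. Il33 had r of at most 0.433 with any other member at 1 day.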

How the data were processed

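The labels describe 4 droplet single-cell RNA libraries of mouse epidermis, 1 per group, each deposited as a filtered matrix of raw UMI counts per gene and barcode, per the file headers; feature and barcode files hold no measured value. Cell Ranger 5.0.1, mm10 and Seurat are named in the submitters' processing notes, with no further parameters. The deposited counts were used as they stand. A barcode was dropped under 500 UMIs, under 300 genes or above 15% mitochondrial UMIs, which removed 3073, 350, 181 and 88 barcodes (1-day control, 1-day ablated, 1-week control, 1-week ablated). Scrublet's own threshold marked 19.4%, 0.00314%, 0.0121% and 0.00546% of barcodes, so the highest scores were removed instead, at 0.8% per 1000 barcodes (8181, 8211, 4979 and 2699 barcodes).

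Cells were clustered per time with scanpy 1.11.5, on 2000 variable genes without the 10 members and the 41 pathway genes, 30 principal components, 15 neighbours and leidenalg 0.10.2 at resolution 1. Names came from marker lists. The limits of naming were set after the data were seen: 3 markers at a log2 fold of 2 for other cell types, a mean log2 fold of 0.7 for keratinocyte classes, and at 1 week only, low-UMI status for clusters with over 50% of barcodes below 3000 UMIs and within 0.2 nats per UMI of the free-RNA profile. That set aside 11200 of 15626 ablated cells. A difference in named classes may come from this naming. The members and lists were chosen with earlier results of these data known. The genes named are the 10 members, the genes of the pathway list (the called ones and some receptors and regulators are printed) and the 3 genes most like each member (pseudocount 10 CPM, at least 200 UMIs per time, of which the first is printed).

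UMIs were summed per class and library. Levels are CPM of those sums with exact Poisson 95% intervals, ratios have exact conditional binomial intervals, and shares exact Clopper-Pearson ones. With 1 library per group no test across libraries exists. A class needed 50 cells in both libraries, a gene 20 UMIs over both, and a sum of 0 was given the limit of 3 counts. Shares were also taken after thinning to 1000 UMIs. Hashtags were assigned at a margin of 0.5 on the natural log scale. Alternatives were TMM factors from edgeR 4.0.16, totals without mitochondrial and ribosomal protein genes, the mean CPM per cell, other filters, a resolution of 0.5, other sets of cells and thinning to 2000 UMIs; the subsets by hashtag, Xist or Y-linked UMIs, the low-UMI clusters and the 1-day clusters past the same limit were added after seeing the data. The ratio and interval code was tested on simulated counts. Sequences came from RefSeq on GRCm38.p6 and gene positions from GENCODE on GRCm38. Other tools were numpy 2.4.6, scipy 1.17.1, pandas 2.3.3, scikit-learn 1.9.0 and matplotlib 3.10.9.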

Additional observations from a re-analysis of the deposited data

Results flagged for a closer look

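Il1b in keratinocytes had a log2 ratio of 0.95 at 1 day and -0.49 at 1 week, opposite directions at the 2 times; neither ratio was called, the kits differ, and the difference was not tested. Il1rn had a ratio of -2.97 (-8.43 to -0.12) in 1-week endothelial-like cells against 0.31 in keratinocytes. It rests on 9 UMIs against 1, below the minimum of 20, and the keratinocyte list in these cells was at 17112 and 5608 CPM, control before ablated. That difference was not tested. Il33 had ratios of 1.30 in T cell-like and 2.15 in fibroblast-like cells at 1 day, against -0.46 in the keratinocyte sum, within which it was 1.12 in granular-like and 2.32 in sebaceous-like cells. Both differences were not tested, and the levels of keratinocyte markers in T cell-like and fibroblast-like cells are given with the values above. In granular-like and sebaceous-like cells Il33 lay below its level in the 10% of barcodes with the fewest UMIs, 56.1 CPM (control) and 91.3 CPM (ablated).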

How the results depend on the processing

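No paired analysis was possible because each group is 1 library. The call of Il18, Il1f6 and Il1f8 at 1 week held in every setting that gave a value (13, 12 and 13 settings), from 1.18 to 3.90, from 7.33 to 8.16 and from 4.4 to 7.08. Basal-like cells gave no value for these genes, nor did hair follicle-like cells for Il1f6. The settings other than hair follicle-like cells kept sums over different clusters, so they cannot show whether the calls hold within a cluster. At 1 day, the median ratio of the 10 genes was 2.04 with totals without mitochondrial and ribosomal protein genes, 2.41 with the mean CPM per cell, 1.98 with the Krt8-led cells counted, 1.99 over all cells, 1.95 with no doublets removed, 1.11 in hair follicle-like and 0.52 in basal-like cells. The last 2 classes called 5 and 3 members. At 1 week hair follicle-like cells called 3 members, with a median of 0.45, and the planned sum over basal-like cells alone, which had only 17 ablated cells and so fell short of the minimum of 50, gave 1 call, a median of -0.18 and a value of -0.072 for Il1f5 from 1 ablated UMI. Nothing is read from these. Il1r2 at 1 day was 0.0892 in hair follicle-like cells. With the mean CPM per cell Il1b was called at 1 day (1.44), and at 1 week it ran from -0.81 with no doublets removed to 0.67 with the low-UMI clusters counted. TMM shifted all ratios by -0.036 at 1 day and -0.13 at 1 week. The cause of these changes was not tested. Thinning to 2000 instead of 1000 UMIs raised shares, for example that of Il33 in 1-day control keratinocytes from 8.71% to 15.4%. Counts limit the precision of the Il1f6 and Il1f8 ratios at 1 week, where the control levels rest on 9 and 22 UMIs.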
